A study of Mus musculus with 3 samples.

Results

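TRα1 occupancy was described at 10 genes that encode transcription factors of striatal projection neurons. They are Foxp1, Foxp2, Bcl11b, Isl1, Ebf1, Meis2, Six3, Sp9, Zfp503 and Ikzf1. A binding site, hereafter a site, was counted at a gene when its summit lay inside the gene body or within 30 kb of the 5-prime end of the gene. By this rule 65 of the 23988 sites of the series fell at 9 of the 10 genes, and Ikzf1 had 0 sites. The genes were named for their role in these neurons, with earlier results of these data known.

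The sites came from ChIP-seq on the striatum of adult male C57BL/6J mice whose GABAergic neurons carried a GS-tagged TRα1. The mice were euthyroid and untreated, and their age was 8 weeks, with the number from the labels and the unit from the study. The tagged genotype was shared by the 2 ChIP libraries and the 1 input library, so no untagged or hormone-deprived group was compared. The driver that restricts the tag to these neurons was not given in the sources used here. The processed data were a single peak list without values for each library, so that no error between animals could be given. Because no RNA was measured, the labelled cell type was not checked against its markers, and no statement on the expression of the 10 genes follows from these data. In the striatum, GABAergic neurons comprise the projection neurons of both pathways and the interneurons, so the signal is a sum over these classes.

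TRα1 is a nuclear receptor that binds DNA with RXR as a heterodimer, with or without the thyroid hormone T3. Its best known element is DR4, in which the hexamer AGGTCA, the half-site, is repeated in the same direction after 4 bp. Striatal projection neurons form the direct and the indirect pathway of the basal ganglia, and their identity depends on combinations of transcription factors. Bcl11b (also called Ctip2), Foxp1 and Meis2 are used by projection neurons of both pathways or their precursors. Isl1, Ebf1, Zfp503 (Nolz-1) and Foxp2 are known mainly from the direct pathway. Six3, Sp9 and Ikzf1 (Ikaros) are known mainly from the indirect pathway.

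The sites were concentrated at the shared factors. Foxp1 held 25 sites, Bcl11b 18 and Meis2 9, together 52 of 65 or 80.0%. The 4 genes of the direct pathway held 10 sites and the 3 genes of the indirect pathway held 3. Relative to the length of the loci, the shared factors had 5.29 sites per 100 kb, the direct pathway genes 0.900 and the indirect pathway genes 1.26. These pooled densities depend on the longest loci and on Bcl11b. By gene the density was 14.6 at Bcl11b, 5.0 at Zfp503, 3.98 at Foxp1, 3.87 at Meis2, 3.33 at both Isl1 and Sp9, 1.67 at Six3, 0.701 at Foxp2 and 0.238 at Ebf1. The short genes Zfp503, Isl1 and Sp9 thus had densities near those of Foxp1 and Meis2. All 10 loci together had 2.79 sites per 100 kb. The loci of all 21938 protein-coding genes had 1.54 sites per 100 kb, and the sequenced genome had 0.906. At least 1 site was present at 57.7% of the protein-coding genes, so the 9 of 10 genes with a site stand beside a high background. At least 9 sites, the count of Meis2, were present at 1.2% of the protein-coding genes. This limit was taken from the counts of the 10 genes and does not allow for gene length, so that genes of like length are given beside most of the 10 genes. The shared factors also held 23 of the 24 sites with a fold enrichment of at least 10. Fold enrichment is the ratio of the fragment pileup at the summit to its local background, with 1 fragment added to each, as given by the peak caller. In 25 of the 65 sites, or 38.5%, and in 42.6% of all sites the background was at its lowest level, 1.69 fragments. There the ratio follows the pileup alone.

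The sequences under the 2 strongest sites of Bcl11b and the strongest sites of Foxp1 and Meis2 are shown first, since these genes hold most of the sites. They are not the 4 strongest of the 65 sites, because a pair of further Foxp1 sites, with fold enrichments of 22.7 and 20.8, exceeded the Meis2 site. Each is given on the plus strand of GRCm38 for 75 bp on either side of the summit. Capitals mark the binding sequence of AP-1, TGANTCA, matched without a mismatch, and pairs of half-sites with at most 2 mismatches. The pairs were direct repeats with spacers of 0 to 8 bp, an everted repeat with a spacer of 6 bp or an inverted repeat without a spacer. AP-1 is the dimer of Fos and Jun proteins, which are induced by neuronal activity.
Bcl11b, 14.1 kb upstream, chr12:108017629-108017779: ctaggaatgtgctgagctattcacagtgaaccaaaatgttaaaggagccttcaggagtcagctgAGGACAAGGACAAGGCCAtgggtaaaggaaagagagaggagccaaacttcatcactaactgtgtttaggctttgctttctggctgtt
Bcl11b, 7.27 kb upstream, chr12:108010800-108010950: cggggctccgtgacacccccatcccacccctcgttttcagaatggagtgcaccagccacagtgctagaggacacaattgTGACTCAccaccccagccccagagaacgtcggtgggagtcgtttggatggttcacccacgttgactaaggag
Foxp1, 51.4 kb downstream, chr6:99471238-99471388: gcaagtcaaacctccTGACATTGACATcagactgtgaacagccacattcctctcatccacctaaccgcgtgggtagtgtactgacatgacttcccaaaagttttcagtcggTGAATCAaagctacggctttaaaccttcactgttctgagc
Meis2, 77.2 kb downstream, chr2:115988542-115988692: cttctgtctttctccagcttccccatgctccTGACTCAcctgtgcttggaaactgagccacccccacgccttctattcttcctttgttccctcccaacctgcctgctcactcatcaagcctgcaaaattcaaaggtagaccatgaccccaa
No DR4 match was present in these 4 sites, but the Foxp1 site with a fold enrichment of 20.8 held one, which is shown after them. The strongest, upstream of Bcl11b, held 3 half-site-like sequences in a row without a spacer. At Foxp1 a pair without a spacer and an AP-1 sequence lay on opposite sides of the summit. Of the sequences marked, the stretches shown at Meis2 and 7.27 kb upstream of Bcl11b held AP-1 alone.

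The DR4 matches closest to the repeat had 1 mismatch in the 12 half-site bases, and 2 of the 65 sites contained one. They are given below with 10 flanking bases on the strand of the repeat, and capitals mark the half-sites.
Bcl11b intron 2, chr12:107967430-107967445, minus strand: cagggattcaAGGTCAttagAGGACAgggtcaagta
Foxp1 intron 1, chr6:99506909-99506924, plus strand: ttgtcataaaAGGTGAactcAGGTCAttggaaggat
In the Bcl11b element the mismatch lies in the downstream half-site, and in the Foxp1 element it lies in the upstream half-site. The element centres lay 36 and 88 bp from the summits of their sites.

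**Figure D1:**
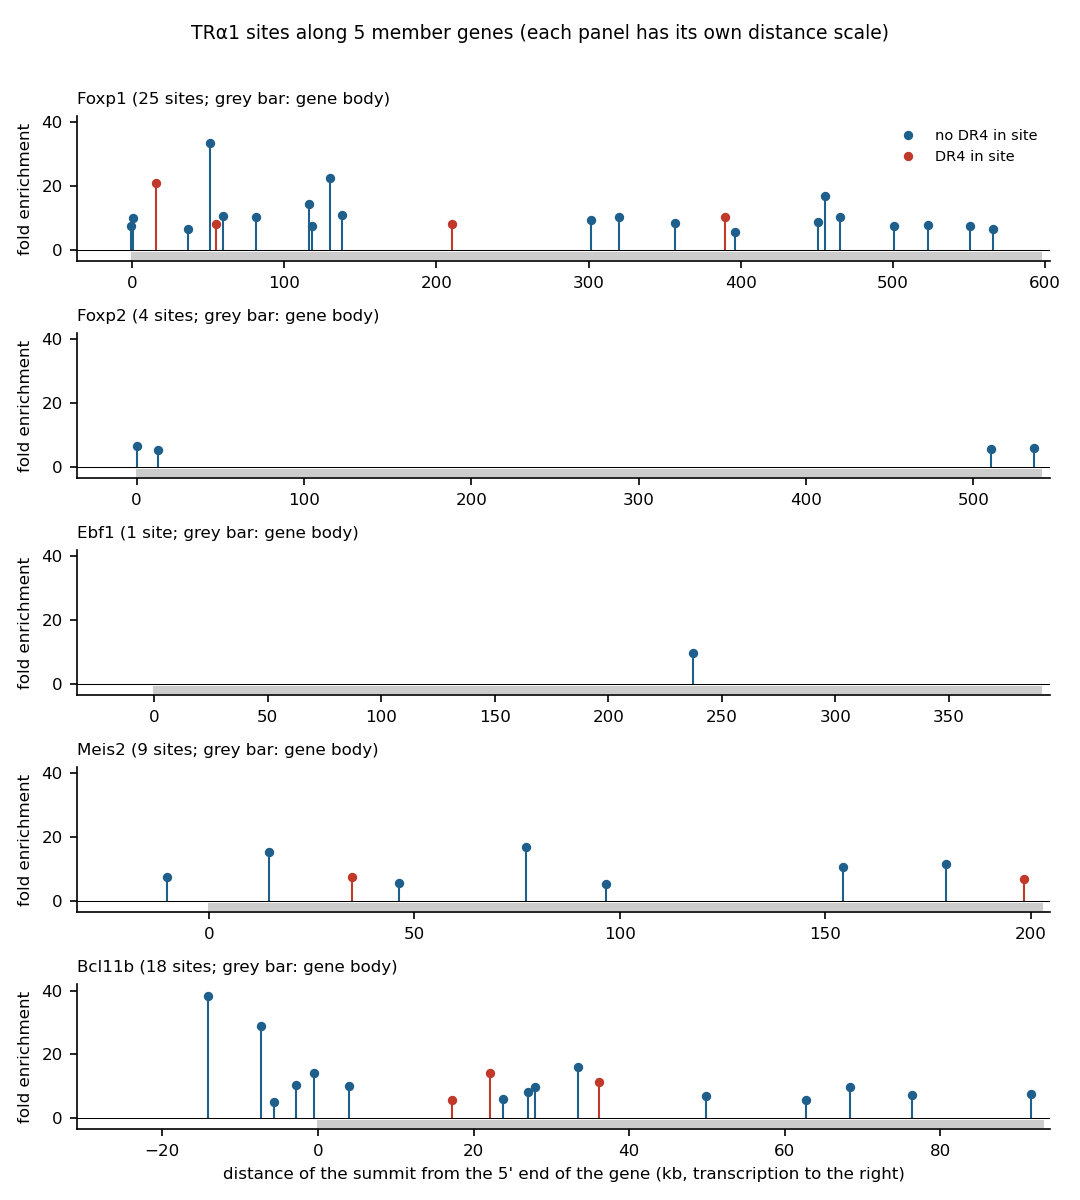
Position and strength of the sites along Foxp1, Foxp2, Ebf1, Meis2 and Bcl11b. The horizontal axis is the distance of each summit from the 5-prime end in kb and the vertical axis the fold enrichment. Each stem is 1 site, red where the site contains DR4, and the grey bar is the gene body. Foxp1 and Bcl11b hold 25 and 18 sites, while Foxp2 and Ebf1 hold 4 and 1 along genes of 541 and 391 kb.

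Bcl11b encodes a zinc finger repressor required for the maturation of striatal projection neurons. The gene spans 93.2 kb on the minus strand (chr12:107910403-108003602). Its 18 sites had fold enrichments between 4.85 and 38.3, with a median of 9.67. The locus held 14.6 sites per 100 kb, a density that 0.182% of protein-coding genes reached. Among 2473 protein-coding genes within 1.5 times its length, the median was 1 site and 0.0809% had at least 18. Of the 18 sites, 11 lay within 30 kb of the 5-prime end, in a locus of 123 kb. Between 15 kb upstream and 40 kb downstream, limits that were not part of the rule, lay 13.

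The strongest of the 65 sites lay 14.1 kb upstream of Bcl11b, where 102 fragments piled up and the fold enrichment was 38.3. This value exceeded that of most sites of the series, at the 98.04th percentile. The second site, 7.27 kb upstream, reached a fold enrichment of 28.9 from a pileup of 77. Between these and the gene, sites at 5.65, 2.81 and 0.45 kb upstream had fold enrichments of 4.85, 10.4 and 14.1. The site at 0.45 kb was the promoter site of Bcl11b, and its pileup was 51. All 5 upstream sites lay outside other annotated protein-coding loci, so that Bcl11b was the only protein-coding gene to which the rule assigned them.

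Inside Bcl11b, intron 2 held 7 sites in 23.6 kb. Their fold enrichments were 16.1, 14.1, 11.2, 9.67, 8.18, 5.95 and 5.58 in descending order. The highest of these lay 33.4 kb downstream of the 5-prime end with a pileup of 70, but its local background of 3.40 was also the highest among the Bcl11b sites. Intron 1 held 1 site with a fold enrichment of 10.04. Intron 3 held 4 sites, the strongest with 9.67. A last site lay in the untranslated part of the final exon, 91.6 kb downstream, with a fold enrichment of 7.40. Beyond 40 kb, no Bcl11b site had a fold enrichment above 9.67.

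Foxp1 encodes a forkhead factor expressed in projection neurons of both pathways. The gene spans 597 kb on the minus strand (chr6:98925338-99522721) and held 3.98 sites per 100 kb, a density that 12.3% of protein-coding genes reached. Its 25 sites had fold enrichments from 5.58 to 33.4, with a median of 9.28. Among 274 genes of like length the median was 4 sites, and 1.46% had at least 25. Only 3 of the 25 sites lay within 30 kb of the 5-prime end. The remaining ones were spread along the introns, with a median spacing of 16.9 kb and a longest gap of 91.2 kb.

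The strongest Foxp1 site lay 51.4 kb downstream of the 5-prime end in intron 1, where the pileup was 89 and the fold enrichment 33.4. The next had a fold enrichment of 22.7 in intron 2, at 130 kb, with a pileup of 60. The third, with 20.8 and a pileup of 55, lay at 15.7 kb in intron 1 and is the site with the DR4 element shown above. These 3 sites with a fold enrichment of at least 20 all fell in the first 150 kb, which held 12 sites with a median of 10.5. The limit of 150 kb was not part of the rule and was set with the sites known. The 13 sites beyond 150 kb had a median of 8.34, and the strongest of them reached 16.7 at 455 kb in intron 6. Intron 1 held 6 sites in 85.3 kb, intron 2 held 5 in 127 kb, and intron 6 held 4 in 59.2 kb. Introns were counted on the longest protein-coding transcript, and Foxp1 has 22 annotated transcript starts, so that an intron of 1 transcript can be upstream sequence of another.

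A pair of sites flanked the 5-prime end of Foxp1. They lay 865 bp downstream and 801 bp upstream, with fold enrichments of 9.91 and 7.47 and pileups of 29 and 22. A second annotated gene, Gm20696 (chr6:99257484-99666797, minus strand), overlaps the 5-prime part of Foxp1, and 13 of the 25 sites also lay in it. Occupancy of the 2 genes cannot be told apart at these sites.

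Meis2 encodes a homeodomain cofactor of the TALE class that is expressed from precursors to mature projection neurons. It spans 203 kb on the minus strand (chr2:115863064-116065839), with 9 sites and 3.87 sites per 100 kb. That density was reached by 12.5% of protein-coding genes. Among 1129 genes of like length the median was 2 sites, and 4.87% had at least 9. The fold enrichments ran from 5.25 to 16.8, with a median of 7.52. The 2 strongest sites lay at 77.2 kb in intron 8, with 16.8 and a pileup of 47, and at 14.6 kb in intron 6, with 15.4 and a pileup of 44. Intron 9 held sites of 11.7 and 10.7, at 179 and 154 kb. The 5 others lay between 5.25 and 7.52. A site at 198 kb fell in a coding exon with a fold enrichment of 7.03. The only site upstream of Meis2, at 10.3 kb, lay within the noncoding genes 2810405F15Rik and G630016G05Rik and had a fold enrichment of 7.52. No Meis2 site lay within 1 kb of one of its annotated transcript starts.

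**Figure D2:**
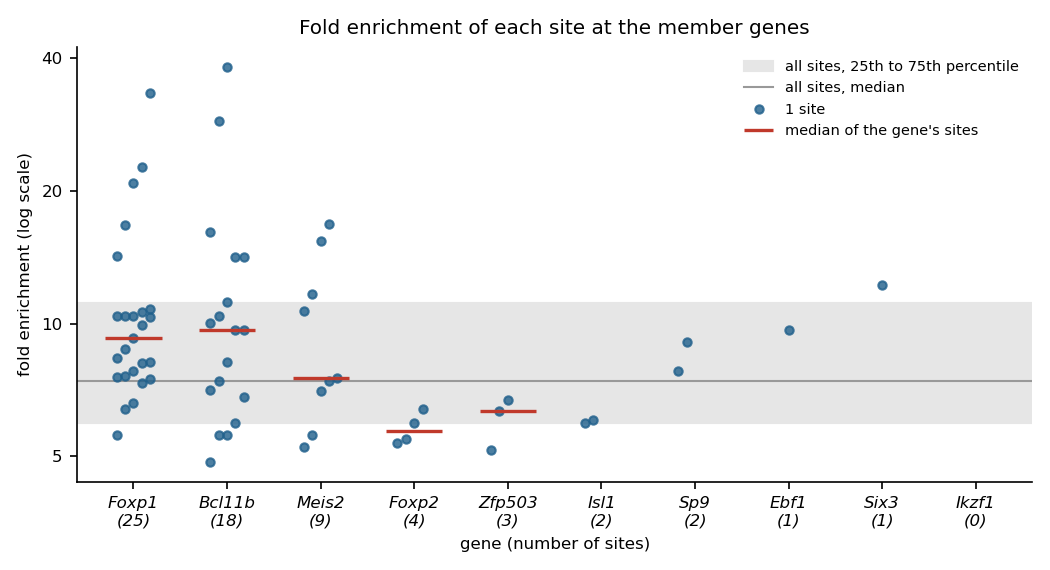
Fold enrichment of every site at the 10 genes, on a log scale, with the number of sites under each gene. Points are sites, red lines are medians of genes with at least 3 sites, and the grey line and band are the median and the 25th to 75th percentile of all 23988 sites. Values above 20 occur at Foxp1 and Bcl11b, and the 4 Foxp2 sites lie between 5.36 and 6.41.

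The 4 direct pathway factors had 10 sites, and none of these reached a fold enrichment of 10. Foxp2, a forkhead factor known for its role in vocal learning and speech, spans 541 kb (chr6:14901349-15441977). It is similar in length to its paralog Foxp1 but held 4 sites, the same number as the median of 327 genes of like length. The sites lay 0.254, 12.9, 510 and 536 kb downstream of the 5-prime end. Their fold enrichments were 6.41, 5.36, 5.48 and 5.95, and their pileups 21, 14, 15 and 15. The first overlapped the first exon, and the other 3 were intronic by the longest transcript. No site was present over 497 kb of the gene between the second and the third site. The GC content of the Foxp2 locus was 36.6%, against 44.4% at Foxp1 and a median of 44.3% at protein-coding loci, and its part in this difference was not tested.

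Ebf1, an early B-cell factor needed for direct pathway neurons to differentiate, had 1 site along 391 kb (chr11:44617317-45008091). It lay 237 kb downstream in intron 6, with a fold enrichment of 9.66 and a pileup of 32. Genes of like length had a median of 3 sites, and 10.8% of them had none. The nearest site upstream of the locus lay 35.9 kb from the 5-prime end, just past the 30 kb limit, with a fold enrichment of 5.95. A further site lay 395 kb downstream of the 5-prime end, past the end of the gene, with 6.69.

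The limits of the rule left out several other sites near the 10 genes. Sites lay past the 3-prime ends of Bcl11b, Foxp1 and Meis2, at 94.3, 602 and 210 kb from their 5-prime ends, with fold enrichments of 8.18, 8.18 and 6.29. Upstream, the closest ones left out besides that of Ebf1 were 43.7 kb from Six3, with 5.58, and 56.6 kb from Zfp503, with 7.07. Of the sites counted outside a gene body, the farthest were those 14.1 kb upstream of Bcl11b and 19.4 kb downstream of Sp9.

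Isl1, a LIM homeodomain factor that specifies direct pathway neurons, had 2 sites at a gene of 11.4 kb (chr13:116298281-116309689). They lay 4.24 kb upstream and 8.29 kb downstream, the latter in intron 5. Their fold enrichments of 6.02 and 5.95 were below the median of all sites. The upstream site had the higher pileup, 27 against 15, but also the highest local background among the 65 sites, at 3.65 fragments.

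Zfp503, a zinc finger factor of the developing striatum, had 3 sites at a gene of 5.64 kb (chr14:21983959-21989601). They lay 71 bp upstream, 1.23 kb downstream in intron 1, and 6.59 kb downstream, beyond the 3-prime end. The fold enrichments were 6.70, 5.17 and 6.32. Among 3831 genes of like length the median was 0 sites and 15.9% had at least 3.

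Of the indirect pathway factors, Six3, a homeodomain factor, had 1 site at a gene of 15.7 kb (chr17:85613608-85629302). This site fell in a coding exon, 556 bp from an annotated transcript start, with a fold enrichment of 12.2 and a pileup of 38. It was the only site with a fold enrichment of at least 10 outside the 3 shared factors. Sp9, a zinc finger factor that acts upstream of Six3, had 2 sites at a gene of 12.8 kb (chr2:73271925-73284706). The first lay 713 bp upstream, and its fold enrichment was 9.09 from a pileup of 28. The second lay 19.4 kb downstream, beyond the gene, with 7.81 and a pileup of 22. This second site was also counted at Cir1 and Scrn3, 2 neighbouring genes, by the same rule.

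Ikzf1, a zinc finger factor also known from lymphocytes, had 0 sites over its locus of 118 kb (gene at chr11:11685003-11772926). This was shared by 28.7% of 2596 genes of like length. The nearest sites lay 223 kb upstream and 124 kb downstream of its 5-prime end, the latter beyond the end of the gene.

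**Figure D3:**
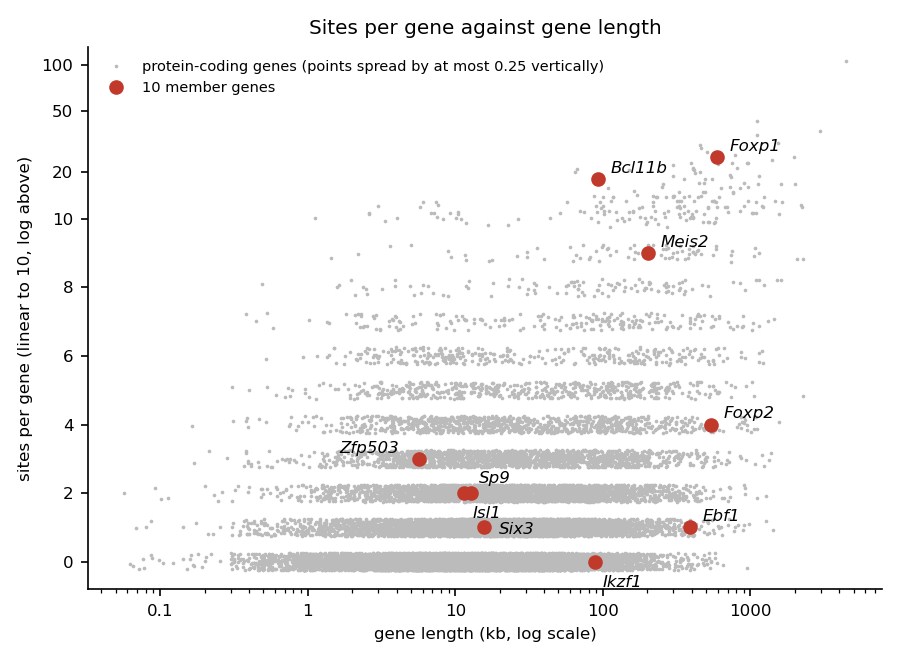
Number of sites at each protein-coding gene against gene length in kb on a log scale. Grey points are the 21938 protein-coding genes, spread vertically by at most 0.25, and red points are the 10 genes. The site axis is linear to 10 and logarithmic above. Bcl11b, with 18 sites at 93.2 kb, and Foxp1, with 25 at 597 kb, lie at the upper edge for their length, while Foxp2 and Ebf1 do not.

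Most of the 65 sites lay away from promoters. Of all sites, 27.2% had their summit within 1 kb of a transcript start of a protein-coding gene, and 7 of the 65 did, or 10.8% (95% Wilson interval 5.32 to 20.6, covering counting error only). These were the pair at Foxp1 and 1 each at Foxp2, Bcl11b, Six3, Sp9 and Zfp503. Their fold enrichments were between 6.41 and 14.1. Introns held 51 of the 65 summits, or 78.5%, against 49.8% of all sites. Both this share and the share within 1 kb of a transcript start are partly set by the rule, since 83.9% of the 2.33 Mb of the 10 loci is gene body. Beyond 30 kb of the 5-prime end lay 39 of the 65 sites, all of them inside a gene body by the rule.

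The fold enrichment of the 65 sites had a median of 8.18, against 7.40 over all sites. A fold enrichment of at least 10 was reached by 24 of them, or 36.9% (26.2 to 49.1), against a background of 29.8%. At least 20 was reached by 5, or 7.69%, against 8.86% of all sites. The strongest site of the series had a fold enrichment of 123. The median pileup was 25 fragments, against 21, and the median length was 414 bp, against 422 bp.

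DR4 with at most 2 mismatches was found in 10 of the 65 sites, or 15.4% (8.58 to 26.1), against 17.3% of all sites. In windows as wide as the sites but moved 5 kb to the right, it was found in 4.62% of the 65 cases and in 5.90% of all cases. These windows, used for the other sequences below as well, were not cleared of called sites. At Bcl11b some of them covered DR4 matches of neighbouring sites. The 10 sites were 4 at Foxp1, 3 at Bcl11b, 2 at Meis2 and 1 at Isl1. Their fold enrichments lay between 5.58 and 20.8, with a median of 8.15, close to the median of the 65 sites. The site 36.1 kb downstream of the Bcl11b 5-prime end held 2 matches, on opposite strands, with element centres 36 and 23 bp from the summit. The site at 22.1 kb in the same intron also held 2 matches, 18 and 54 bp from the summit. The latter site was the longest of the 65, with 1717 bp.

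Most DR4 matches in these loci lay outside the called sites. The 10 loci contained 217 matches, of which 12 lay in a site, or 5.53%. Over the genome the share was 1.82% of 290078 matches. This share depends on how dense the sites are, and they numbered 2.79 per 100 kb in the 10 loci against 0.906 over the genome. At Bcl11b 5 of 20 matches lay in a site, at Foxp1 4 of 62, at Meis2 2 of 27 and at Isl1 1 of 5. The 38 matches at Ebf1, 33 at Foxp2 and 13 at Ikzf1 were all outside sites. Ebf1 had 6 matches with at most 1 mismatch, more than Foxp1 and Bcl11b with 2 each, and none of the 6 was in a site. Few such matches lay in a site anywhere, 1018 of 22256 over the genome, so 0 of 6 is near this background. The matches per 100 kb were 9.88 at Foxp1, 16.2 at Bcl11b, 9.03 at Ebf1 and 5.78 at Foxp2, against 10.96 over the genome.

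**Figure D4:**
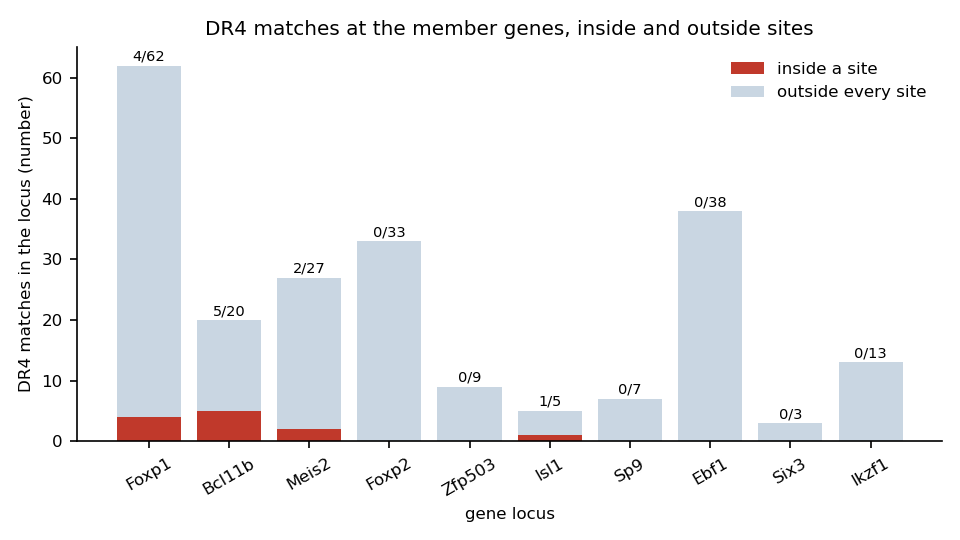
Number of DR4 matches with at most 2 mismatches in each of the 10 loci, divided into those inside a site (red) and outside every site (pale blue), with both numbers above each bar. Bcl11b has 5 of 20 inside sites, and Foxp2, Ebf1 and Ikzf1 have 0 of 33, 38 and 13.

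The triple half-site under the strongest Bcl11b site led to a comparison of half-site arrangements, chosen after this sequence was seen. Within 100 bp of the summit, a direct repeat without a spacer and at most 2 mismatches was present at 4 of the 65 sites, or 6.15% (2.42 to 14.8). It was present at 3.19% of all sites and in 3.32% of the windows 5 kb to the right, and in 0 of the 65 windows beside the sites at the 10 genes. Direct repeats with spacers of 1 and 6 bp were each also present at 4 of the 65 sites, against 2.58 and 2.23% of all sites, and in 3 and 2 of the 65 windows. With 4 sites each, these shares have wide intervals. The sites with a repeat without a spacer include the one that prompted the comparison. Its triple half-site also counts as a repeat with a spacer of 6 bp. A further Bcl11b site counts for the spacers of 1 and 6 bp, so the counts are not independent. DR4 was present at 12.3% of the 65 summits and 13.1% of all summits.

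Sequences of other factors were searched on both strands without a mismatch. AP-1 was present in 13 of the 65 sites, or 20.0% (12.1 to 31.3), against 19.7% of all sites. In the windows 5 kb to the right, it was present in 16.9% beside the 65 sites and in 14.1% beside all sites. Foxp1 had 7 of these sites and Bcl11b 4. Among the 10 strongest sites, 6 contained AP-1 and 1 contained DR4. AP-1 was present in 26.8% and DR4 in 23.3% of the 3897 sites of the series that reached the same fold enrichment. This split was examined after the values were seen. With 10 sites the interval for the AP-1 share was 31.3 to 83.2%, and only 1 of the 65 sites held both AP-1 and DR4.

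The members' own families of binding sequences were also counted. The forkhead sequence GTAAACA was present in 5 of the 65 sites, or 7.69% (3.33 to 16.8), against 3.81% of all sites. The EBF sequence TCCCNNGGGA was present in 4, or 6.15% (2.42 to 14.8), against 1.78%. The LIM homeobox sequence TAATTA was present in 14, or 21.5% (13.3 to 33.0), against 10.4%. In the windows 5 kb to the right, these shares were 10.8, 4.62 and 20.0% beside the 65 sites, and 6.39, 1.18 and 13.2% beside all sites. The intervals of the shares beside the 65 sites were 5.32 to 20.6, 1.58 to 12.7 and 12.1 to 31.3%. Those of the forkhead and LIM homeobox sequences include the share beside all sites. The MEIS sequence TGACAG was present in 27.7% against 34.9%, and the Ikaros sequence TGGGAA in 44.6% against 38.0%. The SP/KLF sequence GGGCGG, which is common at CpG-rich promoters, was present in 23.1% against 28.6%, and in 7.69% of the windows beside the 65 sites. The single half-site AGGTCA without a mismatch was present in 23.1% of the sites and in 23.1% of the windows beside them. The sequence of CREB, TGACGTCA, and that of EGR factors, GCGTGGGCG, were found in 0 of the 65 sites, against 1.33% and 0.867% of all sites.

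The paralogs of the 10 genes offered a comparison within gene families. Of 15 paralogs, 11 had a site, with 19 sites in all and at most 4 at any gene. The median was 1 site per gene, against 2.5 at the 10 genes and 1 at all protein-coding genes. Bcl11a, the paralog of Bcl11b, is of nearly the same length, 96.1 kb, and had 4 sites, the strongest of 10.8-fold enrichment. Meis3 had 4 sites at a gene of 11.4 kb, the strongest with 25.7, and Zfp703, the paralog of Zfp503, had 3. Meis1 had 1 site, and Ebf2, Foxp3, Six6 and Sp8 had 0.

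Of 20 other transcription factors of the striatal lineage, 17 had a site, with 62 sites, a median of 3 and 2.47 sites per 100 kb. Rarb, which encodes a retinoic acid receptor of striatal neurons, Foxo1 and Nr4a1, an orphan receptor induced by activity, had 7 each. Their strongest sites had fold enrichments of 38.9, 21.5 and 14.8. Among 12 factors of cortical projection neurons, 7 had a site, led by Cux1 with 9 and Neurod2 with 7, and the strongest Neurod2 site reached 42.4. Of 9 interneuron factors 3 had a site, among them Nr2f2 with 2 and Sox6 with 1. The glial, microglial and vascular factors had a site in 6 of 12 cases, with 3 at Irf8 and 1 each at Erg and Spi1. The factors of liver, muscle and blood had one in 3 of 12 cases, with 3 at Myod1 and 1 each at Pax5 and Myog. The paralogs had 1.2 sites per 100 kb, the cortical factors 1.66, and the last 3 lists 0.363, 0.645 and 0.490. The lists differ in gene length, with medians from 7.09 kb for the striatal lineage to 90.6 kb for the 10 genes, and no difference between lists was tested.

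**Figure D5:**
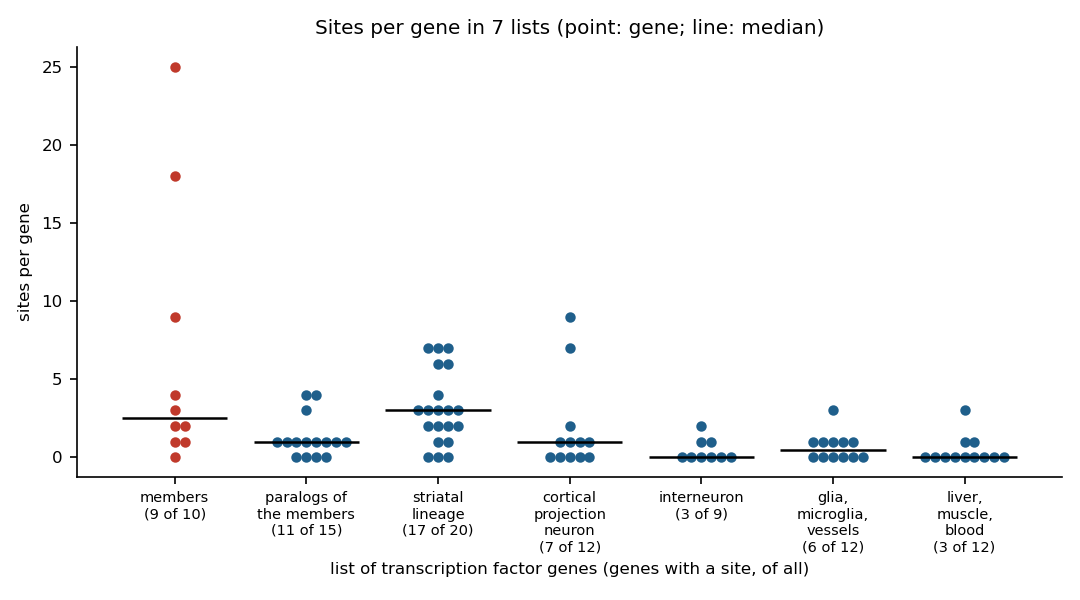
Sites per gene for the 10 genes (red) and 6 other lists of transcription factor genes (blue). Each point is a gene, black lines are medians, and the number of genes with a site is given under each list. Foxp1 and Bcl11b, with 25 and 18 sites, lie above every gene of the other lists, of which Cux1 has the most with 9.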

How the data were processed

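The deposited peak list of the series was used. According to the methods and the labels, reads had been mapped by the authors to GRCm38 (mm10) with Bowtie (Bowtie2 2.3.2.2 in the submitters' processing notes), called peaks with MACS2 2.1.1.20160309.0 and removed those with a score under 60. Whether the 2 ChIP libraries were pooled was not given in the sources used here. The deposited pileup is a signal, the fragment coverage at the summit. The fold enrichment of the authors is a ratio to the local background, and the deposited −log10 q value and score are those of MACS at the summit. They depend on sequencing depth, which is unknown here, so values were only ranked and described within the list. The local background, in fragments, was recovered from the pileup and the fold enrichment. For the ratio, MACS adds 1 fragment to the pileup and to the background.

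Sites were placed by their summits on GENCODE vM21 genes of GRCm38. Exons were those of protein-coding transcripts, and the order of classes was exon, intron, 5 kb upstream, 1 kb downstream and intergenic. DR4 matches had at most 2 mismatches in 12 half-site bases and stand in for the position matrix used by the authors. Genes of like length had a length within 1.5 times. Intervals are 95% Wilson intervals over sites, which are not replicates. No test was made, since the list holds no values for single libraries. Other sequences were matched without a mismatch. The genes named outside the 10 were the 3 with the most sites in each list (ties by fold enrichment), the genes that share a site, and some paralogs chosen after their values were seen. A gene that this rule names is not reported here.

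The 10 genes, the gene lists, their division by pathway and the comparisons were chosen with earlier results of these data known. Lists and roles came from general knowledge. Alternatives were other distances, scores, mismatch limits and annotation, and the list without Foxp1 or, added after seeing the data, without Bcl11b. Python 3.11.15, numpy 2.4.6, pandas 2.3.3 and matplotlib 3.10.9 were used. On simulated sequence all 200 planted DR4 elements were found.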

Additional observations from a re-analysis of the deposited data

How the results depend on the processing

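Of 42 alternative values for 8 results, 27 stayed close to the reported value. Counting only sites within 30 kb of the 5-prime end left 26 sites and raised the density to 4.33 sites per 100 kb. The density of all protein-coding genes under this setting is not given, so the rise cannot be assigned to the 10 genes. A score of at least 200 left 25 sites at 5 genes, with 1.07 sites per 100 kb and a median fold enrichment of 12.2. That score was reached by 38.5% of the 65 sites (27.6 to 50.6) and by 31.4% of all sites. The share of protein-coding genes with a site and their density are not given at this score. The 5 genes and the density of 1.07 therefore have no background here. The higher score also raised the DR4 share of all sites to 21.7%. Without Foxp1 there were 40 sites, 65.0% of them in introns, with a median fold enrichment of 7.47. Without Bcl11b, 47 sites and 2.13 sites per 100 kb remained. Foxp1 and Bcl11b, with 25 and 18 of the 65 sites, were not left out together, so the density without both is not given. With at most 1 and at most 3 mismatches, DR4 was found in 3.08 and 49.2% of the sites at the 10 genes and in 3.86 and 52.9% of all sites. Within 100 bp of the summit it was found in 12.3% of the sites at the 10 genes and in 13.1% of all sites. In these settings the share at the 10 genes was below that of all sites, but close to it. The settings use the same 65 sites and do not add to one another. In the main setting the interval at the 10 genes, 8.58 to 26.1%, included the 17.3% of all sites. No paired analysis was possible because the peak list holds no values for single libraries, and leaving out a library was not possible for the same reason. The depth of the libraries is unknown here, so a locus without a site may hold occupancy below the score threshold.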
